A study of Mus musculus with 9 samples.

Results

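Keratin genes, which encode the intermediate filament proteins of epithelial cells, were examined in whole NB9464 tumors. Members were all symbols made of Krt and a number with at least 1 count in any of 9 libraries. By this rule 28 of 50 keratin symbols were members, 13 of type I and 15 of type II, out of 54429 gene symbols in the table, and the other 22 were at 0 in every library. NB9464 is a mouse neuroblastoma line with amplified MYCN, and its cells were implanted under the skin of wild-type C57BL/6 mice. When tumors reached 250 mm3, mice received vehicle, R788 + anti-PDL1, or Rad + R788 + anti-PDL1, with 3 tumors per group. R788 (fostamatinib), a prodrug inhibitor of the kinase Syk, was given at 50 mg/kg 5 times a week, anti-PDL1 antibody 4 times a week, and radiation (Rad) at 10 Gy. Radiation, R788 and anti-PDL1 given singly were not analysed here, so the effect of a single agent cannot be told apart from that of the combination. The tumors grow from 1 transplanted line in the subcutis, so the whole-tumor RNA could hold skin, vessel and immune cells of the host as well as tumor cells.

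Keratins are obligate heteropolymers. A type I (acidic) chain pairs with a type II (basic) chain, and the pairs mark the kind of epithelium. Krt5 and Krt14 form the pair of the basal layer of epidermis and other stratified epithelia, whereas Krt8 and Krt18 form the pair of simple epithelia. Krt1 and Krt10 replace the basal pair when epidermal cells differentiate, Krt6, Krt16 and Krt17 are expressed in wounded epidermis and hair follicles, and a separate set builds the hair shaft. Neuroblastoma arises from the sympathetic lineage, whose intermediate filaments are of other classes. In these tumors the lineage marker Th was at 0 in all 9 libraries and Dbh had 1 count in a single library, while Hand2 had 6545 to 12901 counts.

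Total counts were 18276683 to 23397886 per library, and a gene at 0 could have had up to 3 counts, or 0.115 to 0.221 CPM (counts per 1000000 of the TMM-normalized library size). Such floors and the intervals below cover counting error only. The first Rad + R788 + anti-PDL1 library (Rad 1) stood apart, with a Pearson r of 0.865 to 0.907 to the other 8 libraries across genes, against 0.937 to 0.980 among those 8, and a TMM factor of 0.743 against 0.975 to 1.12. The log2 fold changes of Krt5, Krt8, Krt7, Krt17 and Krt80 in irradiated against vehicle tumors are given with and without it. The labels give whole tumor as the tissue, although their RNA extraction text names bone marrow macrophages, and nothing states whether the libraries keep strand. In bulk tumors, fewer cells of a type and less RNA per cell cannot be told apart.

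Krt5 held most of the keratin counts. It had 5640 of the counts summed over libraries, against 410 for Krt80, 301 for Krt8, 135 for Krt7 and 128 for Krt17, and these 5 genes were the ones that passed the filter on low counts among 15931 genes tested. Of the other 23 members, Krt14, Krt16, Krt78, Krt10 and Krt83 reached 10 counts in at least 1 library, and 18 stayed under 10 in every library, with 10 of those at 3 or fewer. Type II keratin genes lay together over 657 kb of chromosome 15 (26 genes), of which 9 were at 0 in every library and 7 reached 10 counts in some library. The type I cluster on chromosome 11 held 27 genes, with 15 at 0 everywhere and 4 (Krt10, Krt14, Krt16 and Krt17) reaching 10 counts. Krt18, a type I gene, lies beside Krt8 on chromosome 15.

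**Figure D1:**
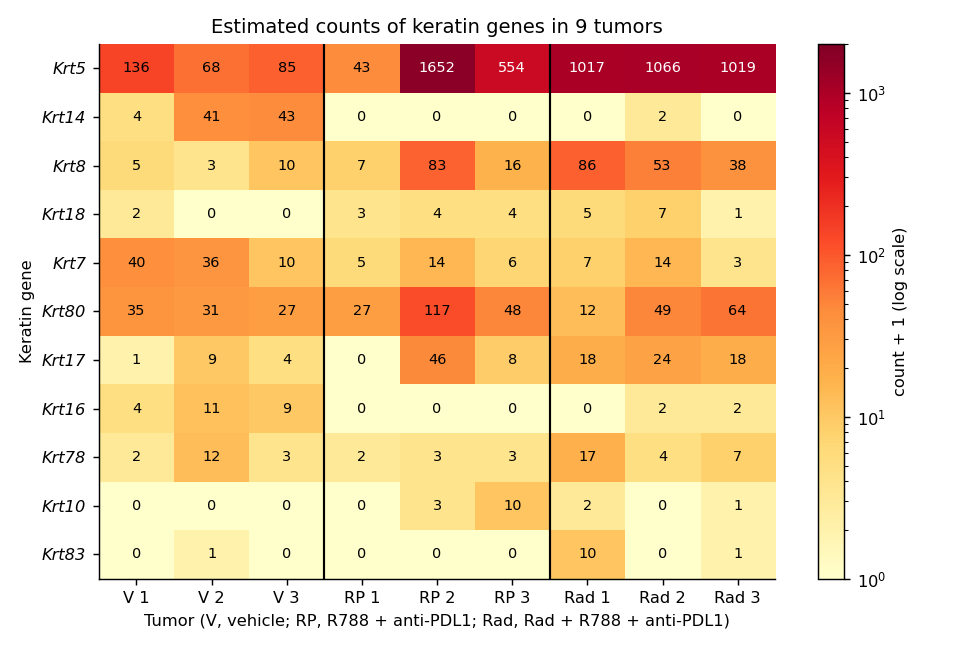
Estimated counts of 11 keratin genes (vertical axis) in each of 9 tumors (horizontal axis; V, vehicle; RP, R788 + anti-PDL1; Rad, Rad + R788 + anti-PDL1), with color on a log scale of count + 1. Krt5 had 43 to 136 counts in vehicle tumors and RP 1 and 554 to 1652 in the other 5 tumors, whereas Krt14 had 41 and 43 counts in V 2 and V 3 and at most 4 elsewhere.

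Krt5 (ENSMUSG00000061527.7, chr15:101707070-101712898, minus strand, GRCm38) encodes the type II keratin of basal epidermal cells. Vehicle tumors had 136, 68 and 85 counts, R788 + anti-PDL1 tumors 43, 1652 and 554, and Rad + R788 + anti-PDL1 tumors 1017, 1066 and 1019. All 3 irradiated tumors were above all vehicle tumors, while the R788 + anti-PDL1 tumors spanned both, with the first tumor (RP 1) below every vehicle tumor. Mean levels were 5.07 ± 2.26 CPM (SD, n = 3) in vehicle, 29.2 ± 31.1 CPM in R788 + anti-PDL1 and 58.5 ± 14.8 CPM in Rad + R788 + anti-PDL1 tumors. The SD in the R788 + anti-PDL1 group was thus as large as its mean.

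Krt8 (ENSMUSG00000049382.10, chr15:101996698-102004482, minus strand) encodes the type II keratin of simple epithelia. Counts were 5, 3 and 10 in vehicle, 7, 83 and 16 in R788 + anti-PDL1 and 86, 53 and 38 in Rad + R788 + anti-PDL1 tumors. As for Krt5, all irradiated tumors lay above all vehicle tumors, while RP 1 lay within the vehicle range. Means were 0.320 ± 0.210, 1.38 ± 1.56 and 3.59 ± 2.43 CPM (SD, n = 3), with the highest value, 6.34 CPM, in Rad 1.

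RefSeq promoters of Krt5 and Krt8, the tested keratins with the largest log2 fold changes, and of Krt18, the partner of Krt8, are shown for their basal and factor motifs (GRCm38.p6; 250 bases before to 50 after the annotated start, 5′ to 3′ on the gene's strand). Capitals mark matches to the motifs searched, which were TATAAA and ATAAAAG on the gene's strand and GGGCGG, AP-1 (TGANTCA), AP-2 (GCCNNNGGC) and a p53 family half-site on both strands. They lie at chr15:101712856-101713155 (minus), chr15:102004293-102004592 (minus) and chr15:102027966-102028265 (plus).
Krt5: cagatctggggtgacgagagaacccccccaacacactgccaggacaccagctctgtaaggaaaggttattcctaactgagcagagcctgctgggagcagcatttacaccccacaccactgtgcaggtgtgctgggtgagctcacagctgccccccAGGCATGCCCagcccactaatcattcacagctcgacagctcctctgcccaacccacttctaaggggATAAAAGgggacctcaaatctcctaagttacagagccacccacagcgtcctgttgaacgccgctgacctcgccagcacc
Krt8: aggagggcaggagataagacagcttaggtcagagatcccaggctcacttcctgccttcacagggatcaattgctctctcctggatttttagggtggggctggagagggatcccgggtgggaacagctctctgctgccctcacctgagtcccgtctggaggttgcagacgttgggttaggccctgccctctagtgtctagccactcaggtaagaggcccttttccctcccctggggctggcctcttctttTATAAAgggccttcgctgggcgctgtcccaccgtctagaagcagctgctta
Krt18: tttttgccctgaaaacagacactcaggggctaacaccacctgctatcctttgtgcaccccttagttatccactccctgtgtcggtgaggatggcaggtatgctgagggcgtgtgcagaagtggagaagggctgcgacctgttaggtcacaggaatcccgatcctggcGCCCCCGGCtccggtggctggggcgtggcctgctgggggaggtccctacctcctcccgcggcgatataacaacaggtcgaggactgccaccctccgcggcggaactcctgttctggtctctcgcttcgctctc
The Krt5 window held ATAAAAG at -29 to -23 (the annotated start counting as 0) and a p53 family half-site, the element also read by the basal epithelial factor Trp63, at -95 to -86. Krt8 held TATAAA at -1 to 4, so that the start in RefSeq lies at the motif itself, and Krt18 held an AP-2 match at -83 to -75. Of the 28 members 16 had a promoter entry, 17 entries in all, and 7 of these held TATAAA and 7 ATAAAAG, overlapping motifs found in 8.32% and 3.38% of 32851 promoters. GGGCGG was in 1 of 17 (35.7% of all promoters), AP-1 in 2 (7.81%), AP-2 in 3 (16.6%) and the p53 family half-site in 2 (8.36%). These matches describe the letters of the windows and are not evidence of binding.

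Against vehicle, R788 + anti-PDL1 tumors had higher mean levels of Krt5 and Krt8 and a lower level of Krt7, with a wide spread among the 3 treated tumors. The log2 fold change of Krt5 was 2.53 ± 0.91 (SE; edgeR quasi-likelihood test, unadjusted p = 0.0208, Benjamini-Hochberg adjusted p = 0.308). For Krt8 it was 2.11 ± 0.95 (edgeR adjusted p = 0.437). None of the 5 tested keratins passed an adjusted p of 0.05 in edgeR, where 0.678% of all genes tested did, and 2 keratins, Krt5 and Krt7, had an unadjusted p under 0.05, as did 11.7% of all genes tested. Of all 28 members, 1 (Krt18, at 0 to 4 counts) was higher in every treated than in every vehicle tumor, against 9.96% of the 27965 genes with a count, and 3 (Krt7, Krt14 and Krt16) were lower, against 10.2%. DESeq2 called 1 of the 5, Krt5 (log2 fold change 2.56 ± 0.82, adjusted p = 0.0393), among 4.83% of all genes. The Krt5 value depended on single tumors, since it was 1.28 (edgeR adjusted p = 0.691) without RP 2 and 3.08 (adjusted p = 0.122) without RP 1. In DESeq2 the Krt5 call was lost without vehicle 2, vehicle 3, RP 2 or RP 3, with adjusted p from 0.124 to 0.555. Over all 21 alternatives the adjusted p of Krt5 ran from 3.39e-06 (DESeq2 without RP 1) to 0.693.

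Krt7, a keratin of ducts and other simple epithelia (chr15:101411043-101430313, plus strand), had lower mean values after treatment, the one keratin of the tested 5 with a negative log2 fold change in both comparisons with vehicle. Counts were 40, 36 and 10 in vehicle, 5, 14 and 6 in R788 + anti-PDL1 and 7, 14 and 3 in Rad + R788 + anti-PDL1 tumors. The R788 + anti-PDL1 and vehicle groups did not overlap in CPM by a narrow margin, 0.535 in RP 2 against 0.548 in vehicle 3. Krt7 gave a log2 fold change of -2.10 ± 0.76 for R788 + anti-PDL1 (edgeR adjusted p = 0.312). The value for Rad + R788 + anti-PDL1 tumors was -1.68 ± 0.76 (edgeR adjusted p = 0.381), and -1.76 without Rad 1.

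Against vehicle, Rad + R788 + anti-PDL1 tumors had higher Krt5, Krt8 and Krt17 in every tumor. The log2 fold changes were 3.53 ± 0.95 for Krt5 (edgeR unadjusted p = 0.00436, adjusted p = 0.222) and 3.47 ± 0.98 for Krt8 (edgeR unadjusted p = 0.00586, adjusted p = 0.247). No tested keratin passed an adjusted p of 0.05 in edgeR, where 0.0439% of all genes did, and 2, Krt5 and Krt8, had an unadjusted p under 0.05, as did 13.2% of all genes tested. Of all 28 members, 5 (Krt5, Krt8, Krt17, Krt19 and Krt90) were higher in every irradiated than in every vehicle tumor, against 6.5% of the 27965 genes with a count, and 2 (Krt14 and Krt16) were lower, against 7.21%. Krt19 and Krt90 were at 0 in all vehicle tumors and had at most 8 counts elsewhere. DESeq2 called 2 of 5, Krt5 (3.56 ± 0.82, adjusted p = 0.00141) and Krt8 (3.54 ± 0.94, adjusted p = 0.00982), among 3.84% of all genes. Without Rad 1 the edgeR values were 3.34 for Krt5 (adjusted p = 0.178) and 2.81 for Krt8 (adjusted p = 0.217), and DESeq2 called neither (adjusted p = 0.0716 and 0.0899). The DESeq2 call of Krt5 was also lost without Rad 2 (adjusted p = 0.0541) or Rad 3 (adjusted p = 0.0556), and that of Krt8 without vehicle 2 (adjusted p = 0.122). Over all alternatives the adjusted p ran from 0.00141 to 0.706 for Krt5 and from 0.00982 to 0.683 for Krt8.

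Between the treated groups, Krt8 was 1.36 ± 0.87 and Krt5 0.999 ± 0.86 higher in log2 fold change in Rad + R788 + anti-PDL1 than in R788 + anti-PDL1 tumors (edgeR adjusted p = 0.400 and 0.524). No tested keratin was called by edgeR (0.00628% of all genes were) or by DESeq2 (5.16% of all genes were), and 0 had an unadjusted p under 0.05, against 18.4% of all genes tested. Of the 28 members, 3 (Krt19, Krt78 and Krt90, all low) were higher without overlap, against 9.14% of genes with a count, and 0 were lower, against 9.09%. Single tumors moved these values. Without Rad 1 they were 0.67 for Krt8 (edgeR adjusted p = 0.756) and 0.78 for Krt5 (edgeR adjusted p = 0.724). Without RP 2 they were 2.87 for Krt8 (edgeR adjusted p = 0.196; DESeq2 adjusted p = 0.0135) and 2.25 for Krt5 (edgeR adjusted p = 0.279; DESeq2 adjusted p = 0.0614). Over all alternatives the adjusted p ran from 0.0135 to 0.773 for Krt8 and from 0.0614 to 0.777 for Krt5. The 3 comparisons share groups, so their values are not independent of each other.

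**Figure D2:**
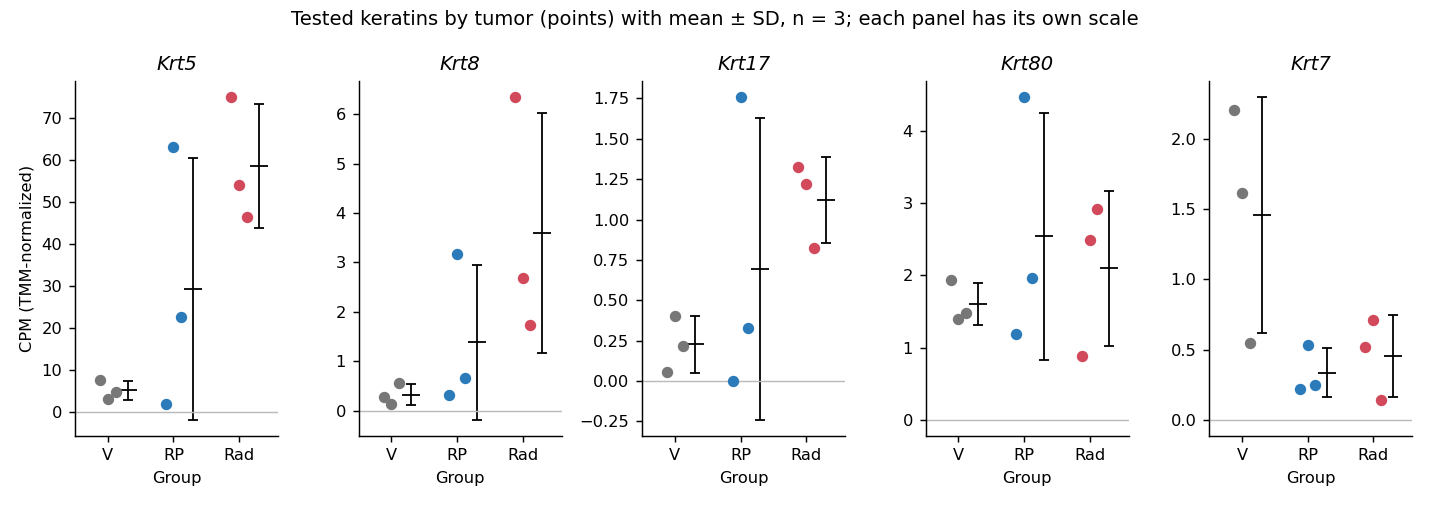
TMM-normalized CPM (vertical axes, linear, each with its own range) of the 5 tested keratins in 9 tumors, with points for tumors and bars for mean ± SD (n = 3) in vehicle (V), R788 + anti-PDL1 (RP) and Rad + R788 + anti-PDL1 (Rad). Krt5, Krt8 and Krt17 in all Rad tumors lay above all V tumors, and RP 2 was the highest RP tumor for all 5 genes.

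**Figure D3:**
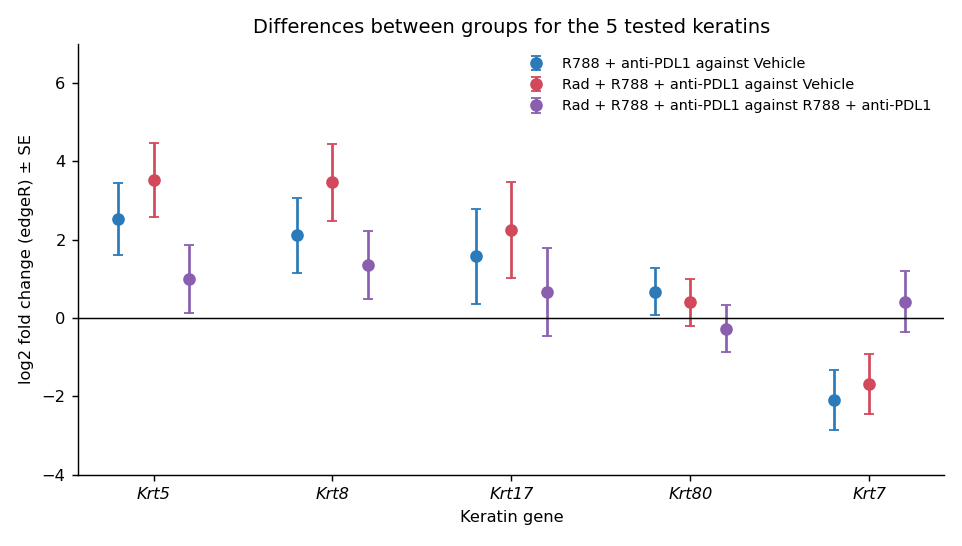
edgeR log2 fold change ± SE (vertical axis) of the 5 tested keratins (horizontal axis) in 3 comparisons that share groups. Against vehicle, Krt5 and Krt8 had values of 2.53 and 2.11 for R788 + anti-PDL1 and of 3.53 and 3.47 with radiation added, and no keratin passed an adjusted p of 0.05.

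Krt17 (chr11:100256217-100261029, minus strand), a type I keratin of hair follicles and wounded epidermis, had 1, 9 and 4 counts in vehicle, 0, 46 and 8 in R788 + anti-PDL1 and 18, 24 and 18 in Rad + R788 + anti-PDL1 tumors. The irradiated tumors did not overlap with vehicle, but all of these counts were low. For the irradiated tumors its log2 fold change was 2.25 ± 1.22 (edgeR adjusted p = 0.423), and 2.15 without Rad 1. For R788 + anti-PDL1 tumors it was 1.58 ± 1.21 (edgeR adjusted p = 0.704), which became -0.46 without RP 2. Krt80 (chr15:101347444-101370162, minus strand), a type II keratin of differentiating epithelial cells, had 35, 31 and 27 counts in vehicle, 27, 117 and 48 in R788 + anti-PDL1 and 12, 49 and 64 in Rad + R788 + anti-PDL1 tumors. Its groups overlapped, with log2 fold changes of 0.67 ± 0.60 and 0.40 ± 0.60 (edgeR adjusted p = 0.745 and 0.750), and the first of these was -0.02 without RP 2, the second 0.78 without Rad 1. Krt80 overlaps the gene Gm35853 on the other strand, which had 0 to 14 counts.

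Krt14 (ENSMUSG00000045545.8, chr11:100203162-100207548, minus strand), the type I partner of Krt5, had its counts mainly in vehicle tumors. Vehicle tumors had 4, 41 and 43 counts, all R788 + anti-PDL1 tumors had 0, and Rad + R788 + anti-PDL1 tumors had 0, 2 and 0. The vehicle level of 1.47 ± 1.11 CPM was at least 11.9-fold higher than that of R788 + anti-PDL1 tumors, taking 3 counts per library as the floor, and 41.4 times that of Rad + R788 + anti-PDL1 tumors (95% counting interval 11.1 to 347). Krt14 did not pass the filter on low counts with all 9 libraries, but DESeq2 called it in several fits that left out 1 library. With all 27965 genes that had a count kept, it was the 1 keratin of 28 called lower in R788 + anti-PDL1 tumors (edgeR unadjusted p = 0.000117, adjusted p = 0.0306), where 0.712% of genes were called. Against Rad + R788 + anti-PDL1 tumors its adjusted p was 0.155 in edgeR, and 0 of 28 keratins were called, with 0.25% of genes called.

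Krt16 and Krt6a, keratins of stressed epidermis, had their counts mainly in vehicle tumors as well, whereas Krt17 of the same set had 14 counts in vehicle, 54 in R788 + anti-PDL1 and 60 in Rad + R788 + anti-PDL1 tumors. Krt16 had 4, 11 and 9 counts in vehicle, 0 in all R788 + anti-PDL1 and 0, 2 and 2 in Rad + R788 + anti-PDL1 tumors. Krt6a, outside the symbol rule, had 0, 37 and 12 counts in vehicle and 0 in all 6 treated tumors, at least 6.27-fold and 4.54-fold higher in vehicle than in the treated groups without and with radiation, while Krt6b had at most 4 counts. None of these 3 was called in edgeR without the filter (Krt16 adjusted p = 0.144 in R788 + anti-PDL1, Krt6a adjusted p = 0.236). Within vehicle the tumors differed, since V 1 held 4 of the 88 Krt14 counts but had the most Krt5. Trp63, the transcription factor of basal epithelial cells, was also lowest in V 1 among vehicle tumors, with 4, 79 and 29 counts in vehicle, 6, 24 and 21 in R788 + anti-PDL1 and 8, 20 and 18 in Rad + R788 + anti-PDL1 tumors.

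Krt18, the partner of Krt8, stayed near the floor. It had 2, 0 and 0 counts in vehicle, 3, 4 and 4 in R788 + anti-PDL1 and 5, 7 and 1 in Rad + R788 + anti-PDL1 tumors. The ratio to vehicle was 4.40 (95% counting interval 0.961 to 40.9) and 6.91 (1.56 to 63.1), and edgeR without the filter gave adjusted p = 0.745 and 0.561. Krt19, a type I keratin of ducts, had 0 counts in vehicle, at most 1 in R788 + anti-PDL1 and 2, 8 and 2 in Rad + R788 + anti-PDL1 tumors, at least 1.39-fold above the vehicle floor.

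Set on a common scale per length (RPKM, CPM divided by exon length in kb), type II keratins exceeded type I keratins in every tumor. The summed type II level was 4.26, 2.28 and 2.87 RPKM in vehicle, 1.28, 31.3 and 11.1 in R788 + anti-PDL1 and 38.8, 26.6 and 22.8 in Rad + R788 + anti-PDL1 tumors. Type I levels were between 0.105 and 1.81 RPKM throughout. The ratio of type II to type I was 1.36 and 1.58 in V 2 and V 3, 11.2 in V 1, 12.2 to 21.1 in R788 + anti-PDL1 and 18.99 to 31.9 in Rad + R788 + anti-PDL1 tumors. Mean Krt5 was 2.31 ± 1.03, 13.3 ± 14.2 and 26.6 ± 6.71 RPKM (SD, n = 3), beside Krt14 at 0.838 ± 0.634 in vehicle and 0.0192 in Rad + R788 + anti-PDL1 tumors. Mean Krt8 was 0.163, 0.704 and 1.83 RPKM, beside Krt18 at 0.0256, 0.104 and 0.179.

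**Figure D4:**
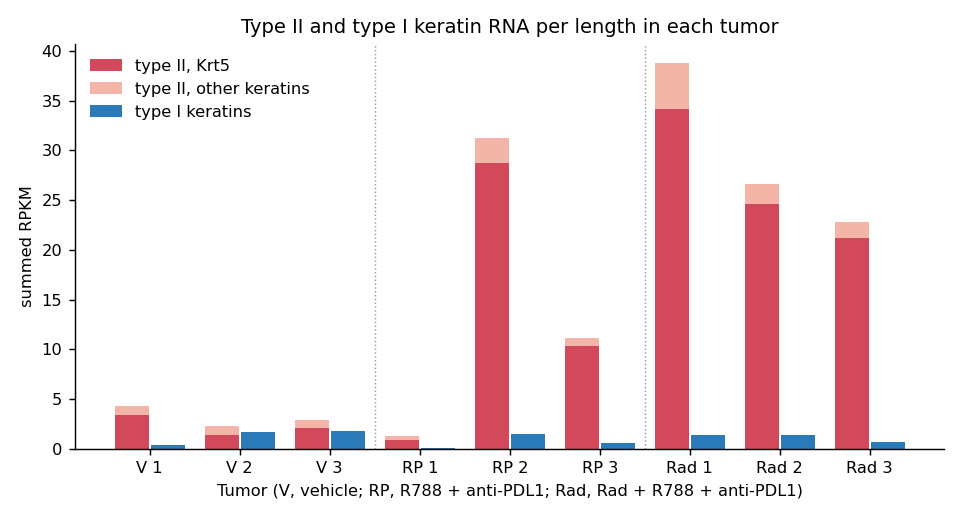
Summed RPKM (vertical axis) of type II keratins, split into Krt5 and the others, and of type I keratins in each of 9 tumors (V, vehicle; RP, R788 + anti-PDL1; Rad, Rad + R788 + anti-PDL1). Type II reached 11.1 to 38.8 in RP 2, RP 3 and the Rad tumors with Krt5 as the main part, while type I stayed between 0.105 and 1.81.

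The share of Krt5 in all keratin counts was 58.9%, 30.5% and 42.9% in vehicle tumors (Wilson 95% intervals 52.4% to 65.0%, 24.8% to 36.8% and 36.2% to 49.9%). It was 48.3% (38.2% to 58.5%) in RP 1, and 84.5% to 87.4% in RP 2, RP 3 and the 3 irradiated tumors. Those 5 tumors lay close together in this share although their keratin totals ranged from 656 to 1936 counts. Without Krt5, keratin counts were 95, 155 and 113 in vehicle, 46, 284 and 102 in R788 + anti-PDL1 and 174, 168 and 147 in Rad + R788 + anti-PDL1 tumors.

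Keratins of differentiated epidermis and hair were scarce in all groups. Suprabasal keratins (11 genes listed, 6 with a count) summed to 2 to 13 counts in vehicle, 3 to 17 in R788 + anti-PDL1 and 6 to 24 in Rad + R788 + anti-PDL1 tumors. Krt1, which marks the first differentiated epidermal layer, had 1 count in all, and Krt2 and Krt77 had 0. Krt10, the partner of Krt1, had 3 and 10 counts in RP 2 and RP 3, 2 and 1 in Rad 1 and Rad 3 and 0 in the rest. Krt78, a suprabasal type II keratin, had 2, 12 and 3 counts in vehicle, 2, 3 and 3 in R788 + anti-PDL1 and 17, 4 and 7 in Rad + R788 + anti-PDL1 tumors. Inner root sheath keratins summed to at most 5 counts in any tumor and hair shaft keratins to at most 10, which were the 10 counts of Krt83 in Rad 1. Krt15, the other basal type I keratin, had 1 count each in Rad 2 and Rad 3.

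Because Salmon divides reads between similar transcripts, the share of 31-base words that each gene has in common with other annotated genes was measured. It was 15.8% for Krt5, the most with Krt6a (9.46%), whose counts were 0 in all treated tumors. Krt8 shared 36.0%, mainly with the pseudogene Krt8-ps (32.2%), which had 0 counts throughout. Krt14 shared 28.2%, Krt16 51.9% and Krt6a 62.0%, so the division of counts within these groups is uncertain. Krt7, Krt80 and Krt78 shared 3.03%, 4.58% and 0.590%, Krt17 15.8%, Krt18 11.4% and Krt83 37.4%. The genes that overlap Krt5, Krt8 and Krt7 on the other strand (Gm44323, Gm36026 and Gm671) were at 0 in every library.

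To ask whether markers of skin or of another epithelium varied with Krt5 and Krt8, lists without keratins were measured in the same tumors. Of 20 epidermal genes 15 had a count and 9 were tested, with 0 called by edgeR in any comparison (unadjusted p under 0.05 against vehicle for 2 without and 3 with radiation, beside 11.7% and 13.2% of all genes). Medians of the log2 fold change were 0.23 and 0.72, against -0.02 and 0.05 over all genes tested. The cornified envelope genes Flg and Ivl and the desmosomal cadherins Dsg1a and Dsc3 were at 0 in all 9 libraries, Lor had at most 4 counts and Dsg3 at most 4. Other members, Krtdap and Perp, were picked after their values were seen. Krtdap had 0, 3 and 0 counts in vehicle, 0, 54 and 23 in R788 + anti-PDL1 and 0, 2 and 2 in irradiated tumors. Perp had 4, 4 and 6, then 31, 10 and 17, then 12, 10 and 27 counts. In CPM Perp was higher without overlap in both treated groups (edgeR adjusted p = 0.353 and 0.328), as were 9.96% and 6.5% of genes with a count. Sfn, a p53 target abundant in keratinocytes, had 149, 198 and 163 counts in vehicle, 93, 161 and 102 in R788 + anti-PDL1 and 370, 146 and 186 in Rad + R788 + anti-PDL1 tumors.

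The summed epidermal level without keratins was 24.2 to 28.7 CPM in vehicle, 24.8 to 46.6 in R788 + anti-PDL1 and 31.2 to 68.7 in Rad + R788 + anti-PDL1 tumors, highest in RP 2 and Rad 1 within the treated groups. Another member chosen after its values were seen, Lgals7, which encodes galectin-7 of stratified epithelia, had 34, 16 and 12 counts in vehicle, 44, 529 and 176 in R788 + anti-PDL1 and 350, 93 and 101 in Rad + R788 + anti-PDL1 tumors. Lgals7 alone held 20.2 of the 46.6 CPM in RP 2. In Rad 1, Lgals7 and Sfn held 25.8 and 27.3 of the 68.7 CPM, so these high sums rested largely on 1 or 2 genes. The order of Lgals7 within the R788 + anti-PDL1 group was that of Krt5, and its log2 fold changes were 3.18 ± 0.99 and 3.43 ± 1.01 (edgeR adjusted p = 0.228 and 0.265). Of the 9 tested genes of the list, 5 were higher in R788 + anti-PDL1 than in vehicle tumors. Trp63, Sfn, Pkp1 and Tgm1 were lower there (log2 fold changes -1.39, -0.85, -0.68 and -0.15). With radiation added 7 were higher, while Trp63 and Col17a1 were lower (-1.14 and -0.46). The part of epidermal cells in the keratin levels was not tested. Hair follicle genes without keratins (10 listed) included 6 at 0 in every library, among them Hoxc13 and Dsg4, with at most 3 counts of Tchh and 2 of Foxn1.

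Simple epithelial and glandular genes (16 listed, 6 tested) summed to 28.4 to 50.0 CPM in vehicle, 14.3 to 31.0 in R788 + anti-PDL1 and 27.1 to 58.0 in Rad + R788 + anti-PDL1 tumors, with 0 called by edgeR (unadjusted p under 0.05 for 2 and 0 against vehicle). Elf3 made up most of the sum in each tumor, at 20.7 to 47.0, 8.25 to 26.2 and 21.3 to 49.7 CPM. In R788 + anti-PDL1 against vehicle tumors its log2 fold change was -0.98. Of the 6 tested genes 2 were higher there, Cdh1 (1.28) and Grhl2 (1.66), both without overlap. Epcam, the general marker of simple epithelium, had 5 counts in RP 1, 7 in Rad 3 and 0 in the rest. Cdh1 (E-cadherin) had 7, 10 and 13 counts in vehicle, 32, 33 and 27 in R788 + anti-PDL1 and 19, 11 and 37 in Rad + R788 + anti-PDL1 tumors, and Cldn7 and Esrp1 had at most 14 and 15. Krt8 was highest in RP 2 and Rad 1, where Epcam was at 0. Of 10 mammary gland genes none was tested and 5 were at 0 in every library, among them Csn2 and Csn1s1, with at most 2 counts of Csn3 and 1 of Wap.

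Markers of other tissues varied between the libraries with high keratins. In RP 2, the R788 + anti-PDL1 tumor with the most Krt5, endothelial genes summed to 179 CPM against 59.6 in RP 1 and 89.3 in RP 3, and fibroblast genes to 5546 CPM against 2979 and 3496. In the irradiated tumors these sums were 69.6 to 87.8 CPM and 2619 to 5062 CPM, with Rad 1, the tumor with the most Krt5, lowest in both. Sebaceous gland genes (8 listed) summed to 68.0 to 164 CPM in vehicle, 76.0 to 84.7 in R788 + anti-PDL1 and 53.7 to 81.9 in Rad + R788 + anti-PDL1 tumors, with Awat2 at 11 to 49 counts and Mc5r, Awat1 and Elovl3 at no more than 8. Nearly all of this sum was Soat1, at 65.8 to 163 CPM in vehicle, 74.6 to 82.5 in R788 + anti-PDL1 and 49.7 to 80.7 in Rad + R788 + anti-PDL1 tumors. Mesothelial genes (7 listed) summed to 8.002 to 19.5 CPM in vehicle, 8.38 to 20.3 in R788 + anti-PDL1 and 13.5 to 19.6 in Rad + R788 + anti-PDL1 tumors, with Msln at 8 to 210, Lrrn4 at 22 to 287, Upk3b at no more than 2 and Wt1 at no more than 4 counts. Of its 3 tested genes 0 were called by edgeR, and the median log2 fold changes were 1.38 and 2.43. Upk1b, a uroplakin gene of that list chosen after its values were seen, had 2, 7 and 5 counts in vehicle, 20, 125 and 46 in R788 + anti-PDL1 and 42, 73 and 75 in Rad + R788 + anti-PDL1 tumors, without overlap with vehicle (log2 fold changes 3.39 ± 0.70 and 3.82 ± 0.71, edgeR adjusted p = 0.0763 and 0.0980). Msln had log2 fold changes of 1.38 ± 0.71 and 2.43 ± 0.73 (edgeR adjusted p = 0.518 and 0.265), and Lrrn4, which made up most of the sum in vehicle, of -0.54 ± 0.59 and -0.87 ± 0.59. The part of these cells in the keratin levels was not tested.

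**Figure D5:**
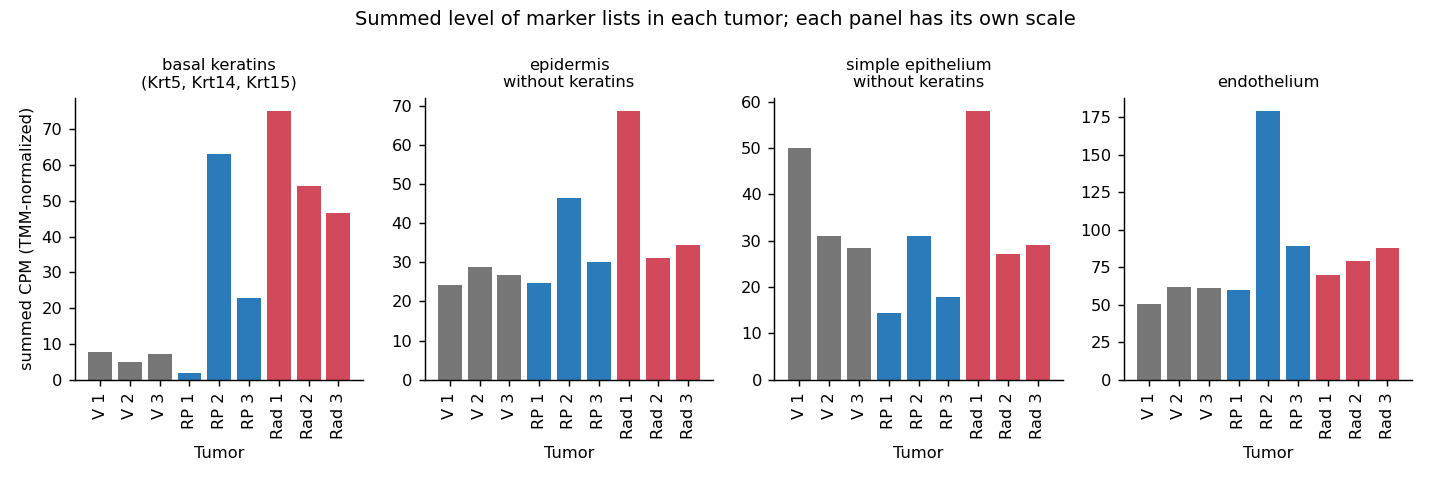
Summed TMM-normalized CPM (vertical axes, each with its own range) of the basal keratins and of 3 marker lists without keratins in 9 tumors (V, vehicle; RP, R788 + anti-PDL1; Rad, Rad + R788 + anti-PDL1). RP 2 and Rad 1 had the highest epidermal sums, 46.6 and 68.7, and RP 2 the highest endothelial sum, 179. Lgals7 held 20.2 CPM of the epidermal sum in RP 2, and Lgals7 and Sfn 25.8 and 27.3 CPM in Rad 1. Elf3 made up most of the simple epithelial sum in each tumor.

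The linkage partners and the other intermediate filaments did not follow a single direction. Of 12 desmosome and plakin genes, which anchor keratin filaments, 10 were tested and 0 called by edgeR, with medians of 0.13 and 0.35 against vehicle (unadjusted p under 0.05 for 1 and 3). Dsp, the plakin that binds keratins at desmosomes, had 21, 16 and 15 counts in vehicle, 18, 54 and 10 in R788 + anti-PDL1 and 4, 20 and 15 in Rad + R788 + anti-PDL1 tumors. Jup had 318 to 1102 counts over all tumors and Dsg2 at most 7. Pkp2 was higher without overlap in both treated groups, at 2.25 ± 0.511 CPM in vehicle, 6.96 ± 1.70 in R788 + anti-PDL1 and 9.52 ± 1.41 in Rad + R788 + anti-PDL1 tumors (edgeR adjusted p = 0.0688 and 0.0723). Among 15 other intermediate filament genes 8 were tested and 0 called by edgeR (unadjusted p under 0.05 for 2 and 2). Vim (vimentin of mesenchymal cells) was 362 ± 48.8 CPM in vehicle, 537 ± 34.9 in R788 + anti-PDL1 and 1066 ± 362 in Rad + R788 + anti-PDL1 tumors (edgeR adjusted p = 0.438 and 0.0912). Nes had 81 to 418 counts, Prph 1365 to 3155 and Ina at most 1.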

How the data were processed

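RNA-seq of 9 whole tumors was used, with groups taken from the treatment labels. Per the paper's methods and the submitters' processing notes, the authors aligned reads to mm10 with STAR 2.6.1d and quantified them with Salmon 1.4.0. Estimated counts were deposited for each gene symbol as whole numbers, which needed no rounding, and were not normalized. Paired-end reads in the labels conflict with single reads in the paper.

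Here counts were filtered (filterByExpr, minimum count 10), TMM-normalized and fitted for all 9 libraries and all genes with the robust quasi-likelihood test of edgeR 4.0.16 (R 4.3.3), two-sided, with Benjamini-Hochberg adjustment over 15931 genes and calls under 0.05. The authors used DESeq2, which was run as an alternative (1.42.0), as were limma-voom 3.58.1, other normalizations, filters, a replicate block and leaving out each library. The procedure was tested on simulated data in which only genes with high counts were changed, so that test does not cover keratins with low counts. An exact permutation test of 3 against 3 cannot go below p = 0.1. The edgeR p-values weigh a group difference against the spread between these tumors, as moderated over all genes.

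Positions, exon lengths and overlaps came from GENCODE M21 (GRCm38) and promoters from RefSeq. Members, marker lists and tests were chosen with earlier results of these data known. Keratins passing the filter, Krt14, Krt18, keratins with 10 counts in any library, and the first 4 markers and called members of each list were named; markers of lists remote from epithelium are given as ranges, and 1 marker is not reported here. Lists were epidermis, hair follicle, simple epithelium, mammary gland, sebaceous gland, mesothelium, melanocytes, skeletal muscle, adipocytes, fibroblasts, endothelium, macrophages, T cells, sympathetic neuroblasts, desmosomes and other intermediate filaments.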

Additional observations from a re-analysis of the deposited data

How the results depend on the processing

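The number of keratins called was 0 in all 3 comparisons with edgeR. It was also 0 with limma-voom, RLE and upper-quartile normalization, at least 10 counts in every library, and only the 6 libraries compared. DESeq2 called 1 keratin in R788 + anti-PDL1 (Krt5) and 2 with radiation added (Krt5, Krt8), each against vehicle, sample quality weights in limma-voom called Krt8 alone (1 keratin) for irradiated against vehicle tumors and between the treated groups, and no filter on low counts called 1 (Krt14) in R788 + anti-PDL1. Leaving out single libraries gave 0 calls throughout with edgeR. Leaving them out in DESeq2, fits added after seeing the data, gave 0 to 2 calls in R788 + anti-PDL1 and 0 to 3 in irradiated against vehicle tumors, and 0 to 1 between the treated groups. Krt14 was among those called in R788 + anti-PDL1 without vehicle 1, RP 1, RP 2 or RP 3. It was also among those called in irradiated against vehicle tumors without vehicle 1 or Rad 2. Directions reversed in Krt17 in R788 + anti-PDL1 against vehicle (-0.46 without RP 2, -0.45 with DESeq2 without RP 2, -0.095 with quality weights), Krt80 there (-0.020 without RP 2), Krt7 between the treated groups (-0.10 without Rad 2, -0.079 with DESeq2 without Rad 2) and Krt80 between the treated groups (0.42 without RP 2, 0.42 with DESeq2 without RP 2, 0.09 without Rad 1, 0.073 with DESeq2 without Rad 1, 0.47 with quality weights). Over the edgeR fits that leave out a library these 4 values ranged from -0.46 to 2.29, from -0.020 to 1.003, from -0.10 to 0.93 and from -0.61 to 0.42. The cause was not tested.

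The correlations of deviations of same-numbered tumors were -0.046 to 0.233. Differently numbered tumors were not correlated in this way, so these values cannot decide whether the replicate numbers pair the tumors. With a replicate block 0 keratins were called in each comparison, and 0, 3 and 0 genes in all were called, against 108, 7 and 1 without it. Most keratins lay at or near the floor of 3 counts, so differences among them were not detectable at this depth.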

Other observations

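Several marker lists remote from epithelium bear on the makeup of the tumors. Macrophage genes (10 tested) summed to 315 to 633 CPM in vehicle, 665 to 687 in R788 + anti-PDL1 and 334 to 1784 in Rad + R788 + anti-PDL1 tumors, with Rad 3 at the top and Rad 2 at the bottom. T cell genes (5 tested) summed to 3.73 to 9.33, 16.1 to 30.2 and 6.86 to 46.8 CPM, and the R788 + anti-PDL1 and vehicle tumors did not overlap. Cd4 and Lck made up most of the T cell sum in each tumor. Cd3e overlapped, with 3, 3 and 5 counts in vehicle and 4, 5 and 1 in R788 + anti-PDL1 tumors. So did Cd8a, with 3, 15 and 5 against 9, 25 and 6, while Cd28 did not, with 2, 1 and 3 against 9, 7 and 16. Neither list held a gene called by edgeR (unadjusted p under 0.05 for 0 and 2 macrophage genes, and for 2 and 2 T cell genes, in the comparisons with vehicle). Krt5 was nearly the same in Rad 2 and Rad 3, at 54.1 and 46.5 CPM, while their macrophage sums were 334 and 1784. The part of macrophages in the keratin levels was not tested.

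The called member among all marker lists was Isl1, a transcription factor of sympathetic neuroblasts, which was at 0 in all vehicle tumors and had 80, 48 and 63 counts in R788 + anti-PDL1 (edgeR adjusted p = 0.0344) and 14, 27 and 21 in Rad + R788 + anti-PDL1 tumors (adjusted p = 0.0605). Ddc of the same list went the other way, with 356, 319 and 289, then 175, 90 and 126, then 185, 154 and 99 counts, both treated groups being below vehicle in CPM without overlap (log2 fold changes -1.61 ± 0.44 and -0.94 ± 0.43, edgeR adjusted p = 0.155 and 0.383). Neuroblast genes together summed to 340 to 458, 444 to 505 and 480 to 886 CPM, of which Hand2 alone held 325 to 434, 430 to 493 and 472 to 867. Skeletal muscle genes summed to 8.77 to 10.2, 9.96 to 13.3 and 9.96 to 27.6 CPM, highest in Rad 1, adipocyte genes to 151 to 214, 207 to 270 and 153 to 196, and melanocyte genes to 2.30 to 3.28, 2.37 to 3.11 and 3.33 to 4.50.

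The periplakin gene Ppl and the plakophilin genes Pkp1 and Pkp3, junction partners of keratins picked after their values were seen, were higher in all 3 irradiated tumors than in the other 6. Of genes with a count, 6.5% were higher without overlap against vehicle and 9.14% against R788 + anti-PDL1 tumors. The share higher against both was not measured. Ppl had 143, 240 and 193 counts in vehicle, 27, 301 and 100 in R788 + anti-PDL1 and 311, 757 and 647 in Rad + R788 + anti-PDL1 tumors. Pkp1 had 3, 6 and 5, then 0, 8 and 3, then 16, 40 and 43. None of these 3 genes passed the edgeR test in irradiated against vehicle or against R788 + anti-PDL1 tumors (adjusted p = 0.336 and 0.203 for Ppl, 0.265 and 0.184 for Pkp1, 0.307 and 0.176 for Pkp3). Of the 10 tested desmosome and plakin genes, which include Ppl and Pkp3 but not Pkp1 of the epidermal list, 6 were higher in irradiated than in vehicle tumors. Eppk1, Dsp, Dst and Pkp4 were lower (log2 fold changes -1.20, -0.41, -0.31 and -0.31).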
